A study of Mus musculus with 2 samples.

Results

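The genes of major histocompatibility complex (MHC) class II antigen presentation were measured in single cells of the mouse small intestine. The set comprised 7 genes, H2-Aa, H2-Ab1, H2-Eb1, Cd74, Ciita, H2-DMa and H2-DMb1, which were taken by symbol from the gene rows of the deposited count tables. All 7 were present, once each, among the 55357 genes of both tables. No measured value entered the rule, but the list was drawn up with earlier results of these data known.

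The study asked what adiponectin made within the intestinal epithelium does to crypt cells. It sequenced 1 library per genotype of 10x Genomics 3′ single-cell RNA from small intestinal epithelium, which it describes as enriched for crypts. A supplementary legend of the study names the ileum for these cells. The control genotype, Adipfl/fl, carried adiponectin alleles flanked by recombination sites and no Cre. The other genotype, Adipfl/flpVilli-CreT, carried the same floxed alleles together with Cre recombinase under the villin promoter, which acts in intestinal epithelial cells and not in immune cells. These are called the control and the Cre library, and paired values are given in that order. The mice were males aged 8 weeks and no treatment is named. The legend of the study gives 6 mice without saying how many entered each library, so a library was a pool and differences between mice were not measured. Adipoq, the deleted gene, gave 1 and 0 transcripts over all barcodes and so could not be used to check the genotype labels.

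Class II molecules are pairs of an alpha and a beta chain that carry peptides from the endosome to the cell surface, where CD4+ T cells read them. H2-Aa and H2-Ab1 encode the alpha and beta chains of the I-A molecule, and H2-Eb1 encodes the beta chain of I-E, whose alpha chain gene H2-Ea is defective in mice of C57BL/6 background. Cd74 encodes the invariant chain, which fills the groove of a new class II molecule and guides it to the endosome, and H2-DMa and H2-DMb1 encode the H2-DM pair, which exchanges the remnant of the invariant chain for peptide. Ciita encodes the transactivator that switches the whole set on by docking to RFX, CREB and NF-Y factors bound at their promoters. Dendritic cells, macrophages and B cells use class II constantly, whereas enterocytes of the small intestine make it in response to interferon gamma and to the microbiota.

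On the GRCm38.p6 assembly, which is the mm10 build used by the authors, the annotation placed H2-Ab1 (ENSMUSG00000073421) on chromosome 17 from 34263227 to 34269418, H2-Aa (ENSMUSG00000036594) from 34282744 to 34287823 and H2-Eb1 (ENSMUSG00000060586) from 34305867 to 34316674. The editor genes H2-DMa (ENSMUSG00000037649, from 34119693 to 34139101) and H2-DMb1 (ENSMUSG00000079547, from 34153191 to 34160229) were on the same chromosome, and Ciita (ENSMUSG00000022504) was on chromosome 16 from 10480014 to 10531064. All 6 were annotated as protein coding. H2-Ea was annotated as a transcribed pseudogene on chromosome 17 from 34341952 to 34344645. Cd74 (ENSMUSG00000024610) is named here without a position.

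RefSeq promoter windows, from 250 bases before to 50 after the transcription start, were at hand for 4 of the 7 genes. The last 150 bases before the start are shown for H2-Aa (chr17:34287824-34287973, minus strand), H2-Eb1 (chr17:34305717-34305866, plus strand) and H2-DMb1 (chr17:34153041-34153190, plus strand), because a chain and an editor gene with unlike levels at the villus tip carry the same letters there. Capitals mark the Y box letters TGATTGG, an NF-Y recognition sequence, and upstream of them either TGACGTCA, the palindrome that CREB factors recognise, in H2-Aa or AACTGATGATGCT in the other two genes.
H2-Aa: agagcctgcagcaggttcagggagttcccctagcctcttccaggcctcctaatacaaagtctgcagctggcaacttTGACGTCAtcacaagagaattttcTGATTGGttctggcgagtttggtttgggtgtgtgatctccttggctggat
H2-Eb1: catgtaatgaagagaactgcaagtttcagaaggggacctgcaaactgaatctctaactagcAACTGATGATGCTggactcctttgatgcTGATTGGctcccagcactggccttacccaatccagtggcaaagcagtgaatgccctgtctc
H2-DMb1: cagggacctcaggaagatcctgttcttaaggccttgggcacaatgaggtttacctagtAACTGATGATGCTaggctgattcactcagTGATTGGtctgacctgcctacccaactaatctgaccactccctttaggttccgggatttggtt
Both strands of 32851 windows were searched, and no motif overlapped another in these 3 windows. TGATTGG occurred in 2568 windows (7.82%) and TGACGTCA in 588 (1.79%). AACTGATGATGCT is the longest run of letters shared by the H2-Eb1 and H2-DMb1 windows and was chosen from them, and it was found in 3 windows in all (0.00913%), the last being that of Slc39a10. Counted from the transcription start, the Y box letters began at -50 in H2-Aa, -61 in H2-Eb1 and -63 in H2-DMb1, and the upstream letters at -74, -89 and -92. The bases between the upstream run and the Y box numbered 16, 15 and 16. Neither of the 2 windows of H2-DMa held any of these letters, which says only that they are not in those windows.

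The libraries held 9791 and 11838 barcodes with 42150623 and 63370798 unique molecular identifiers (UMIs). A filter of over 500 genes and below 25% of UMIs from mitochondrial genes left 3069 and 5555 cells with a median of 4838 and 4749 UMIs, and 3 barcode sequences occurred among the kept cells of both libraries. Clusters were named from marker genes and carry the ending "-like". Epithelial clusters made up 81.7 and 88.9% of kept cells, the rest being T cell-like, myeloid-like and immunoglobulin-led cells, and no cluster was named for Paneth cells. Despite the stated crypt enrichment, the crypt-like classes made up 2.77 and 4.07% of kept cells and the named villus classes 47.4 and 59.6%. The goblet-like cluster held 8 of 9 Paneth markers beside all 7 goblet markers, and the stem-like one 6 Paneth and 12 cell cycle markers beside all 11 stem markers. Level means the UMIs of a gene per 1000000 UMIs of its class, all cells pooled, and is given in counts on that scale (CPM). The 3′ kit counts transcript ends, so levels were compared between genes without length scaling. Brackets hold exact 95% intervals of counting error, and with 1 library per genotype no difference between genotypes has a replicate check or a p-value.

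Class II transcripts made up 638 and 604 CPM in all epithelial cells (2507 and 4939 cells, 14191 and 27362 UMIs of the 7 genes). Among the named epithelial classes, the summed level was highest in the middle of the villus and low in the secretory cells. In mid-villus-like enterocytes, led by transporter genes such as Slc5a12 and Slc2a2, the 7 genes summed to 955 (933 to 979) and 844 (828 to 859). An enterocyte cluster that met no naming rule and was led by Ubd and Aldh4a1 (cluster 0) held 972 (927 to 1019) and 969 (928 to 1010.1). The control intervals of these 2 groups overlapped and the Cre intervals did not. A crypt sub-cluster of 1 and 55 cells, led by cell cycle and histone genes and left unnamed, held 1009.8 (907 to 1121) in the Cre library, above mid-villus-like cells.

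Villus tip-like cells, led by Ada, Nt5e and Clca4a, held 684 (651 to 718) and 706 (686 to 726), and stem-like cells, marked by Olfm4 and Smoc2, held 707 (656 to 760.1) and 612 (583 to 641) over only 40 and 117 cells. The tip-like and stem-like intervals overlapped in the control, and the tip-like level was the higher in the Cre library. Below them came villus bottom-like cells (led by Car4 and Krt19) at 428 (411 to 446) and 368 (356 to 379) and transit-amplifying (TA)-like cells, the dividing progeny of stem cells, at 306 (277 to 336) and 301 (282 to 322). Villus enterocytes of the 3 named zones together were at 1.5 and 1.41 times the level of the crypt-like classes. Stem-like cells in turn were at 2.31 (2.05 to 2.62) and 2.03 (1.87 to 2.21) times the TA-like level. The control ratio rested in part on 1 stem-like cell with 222 of the 729 class II UMIs, which the interval does not cover. Among cells without an antigen-presenting cell marker UMI, stem-like cells held 525 and 721 and TA-like cells 294 and 330.

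Secretory classes were lower than the middle and tip of the villus. Goblet-like cells (Muc2, Tff3) held 185 (166 to 206) and 347 (329 to 367), tuft-like cells (Dclk1, Trpm5) 142 (114 to 175) and 164 (136 to 197) and enteroendocrine-like cells (Chga, Chgb) 120.2 (89.5 to 158) and 232 (191 to 280.1). In the control the tuft-like interval overlapped those of both other secretory classes, and in the Cre library the goblet-like level was above both and above the TA-like level. T cell-like cells, lymphocytes marked by Cd3e and Cd8a, were at 98.0 and 124, the lowest level of all named classes in both libraries. In the control the enteroendocrine-like interval held the T cell-like level, so this order was not settled there. Myeloid-like cells, marked by Lyz2, Tyrobp and C1qa, were at 28693 and 23514, which was 40.0 (38.8 to 41.2) and 36.5 (35.2 to 37.9) times the villus level. The plot of levels by class shows each gene separately.

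**Figure D1:**
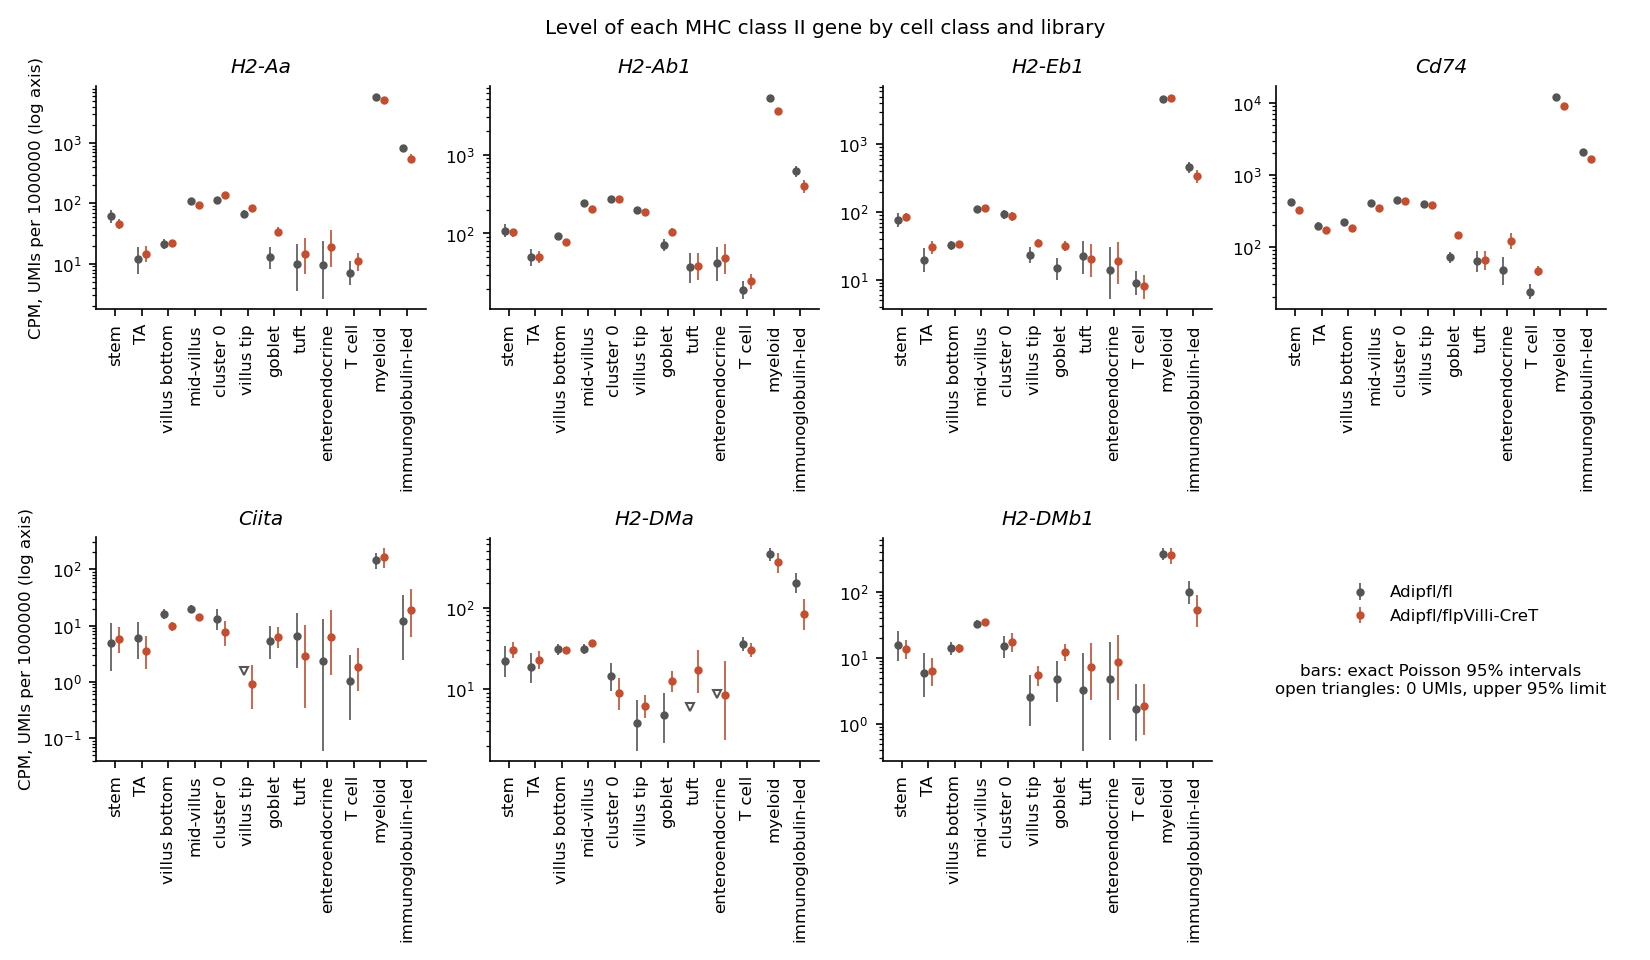
CPM of each of the 7 genes (log axis) in each cell class, with control and Cre libraries as separate points and bars for exact 95% counting intervals. Myeloid-like cells stand above every epithelial class for all 7 genes, and in the epithelium Cd74 is the most abundant member, at 409 and 348 in mid-villus-like cells.

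The I-A chains showed the same zones with unequal strength. H2-Ab1, the beta chain, was at 109 and 103 CPM in stem-like, 50.3 and 50.2 in TA-like, 94.2 and 77.0 in villus bottom-like, 244 and 203 in mid-villus-like enterocytes and 198 and 187 in villus tip-like ones. H2-Aa, the alpha chain, was at 61.1 and 45.6, 11.8 and 14.7, 21.2 and 21.8, 107 and 93.7 and 67.4 and 85.2 in the same order. Both chains were thus lower in TA-like cells than in the stem-like cells before and the mid-villus-like cells after them. The same held for villus bottom-like cells, except that the control intervals of H2-Ab1 overlapped between stem-like (89.4 to 131) and bottom-like cells (86.2 to 103). The mid-villus-like level was 5.06 (4.16 to 6.21) and 4.31 (3.75 to 4.96) times the bottom-like level for H2-Aa, and 2.59 (2.34 to 2.86) and 2.64 (2.44 to 2.85) times for H2-Ab1. The intervals of the alpha and beta chain did not overlap in either library, so the alpha chain differed more between these zones.

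H2-Eb1, the beta chain left without its partner, was at 32.6 and 34.0 in villus bottom-like cells and 112 and 114 in mid-villus-like cells, a ratio of 3.45 (2.92 to 4.08) and 3.35 (2.99 to 3.75). At the tip it was at 23.6 and 35.3, so that mid-villus-like cells were at 4.75 (3.62 to 6.35) and 3.23 (2.81 to 3.72) times the tip-like level. The same comparison gave 1.59 (1.34 to 1.90) and 1.10 (0.994 to 1.22) for H2-Aa and 1.23 (1.11 to 1.37) and 1.08 (1.01 to 1.16) for H2-Ab1. The intervals of H2-Eb1 lay above those of both I-A chains in both libraries. With a mitochondrial limit of 10% the control ratios were 4.29 for H2-Aa, 2.94 for H2-Ab1 and 13.2 for H2-Eb1. Over all alternatives the Cre ratios ran from 0.891 to 1.96 for H2-Aa and 0.907 to 1.36 for H2-Ab1, to both sides of 1. Over the processing alternatives the H2-Eb1 ratio ran from 2.00 to 13.2 in the control and 2.06 to 3.66 in the Cre library, and the lowest control value came from keeping only cells with more than 1000 genes.

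Cd74, the invariant chain, was the most abundant member in each epithelial zone, at 418 (379 to 459) and 328 (307 to 349.9) in stem-like, 193 and 173 in TA-like, 219 and 181 in villus bottom-like, 409 and 348 in mid-villus-like enterocytes and 388 and 385 in villus tip-like ones. Unlike H2-Eb1 it stayed near its mid-villus level at the tip. The ratio of mid-villus-like to tip-like level was 1.05 (0.976 to 1.13) in the control, an interval that holds 1, and 0.902 (0.860 to 0.947) in the Cre library, where the tip was the higher. A mitochondrial limit of 10% moved these ratios to 2.49 and 1.17.

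The peptide editors were lowest at the villus tip. H2-DMa was at 30.7 and 29.8 in villus bottom-like, 31.2 and 36.2 in mid-villus-like enterocytes and 3.79 and 6.16 in villus tip-like ones, and H2-DMb1, its partner, at 13.9 and 13.9, 32.5 and 35.0 and 2.53 and 5.41. The tip values rested on 9 and 41 UMIs of H2-DMa and 6 and 36 of H2-DMb1. The mid-villus-like level was 8.22 (4.25 to 18.2) and 5.87 (4.27 to 8.29) times the tip-like level for H2-DMa, and 12.8 (5.81 to 35.4) and 6.47 (4.61 to 9.35) times for H2-DMb1. All alternatives kept both genes lower at the tip, and in the Cre library the H2-DMb1 ratio ran from 1.85 to 7.89, the lowest with a mitochondrial limit of 10%. At the villus bottom the pair was unequal, with 2.21 (1.68 to 2.94) and 2.15 (1.77 to 2.61) UMIs of H2-DMa per UMI of H2-DMb1. In mid-villus-like cells it was 0.960 (0.793 to 1.16) and 1.03 (0.909 to 1.18), and both of these intervals held 1. The printed promoters of H2-Eb1 and H2-DMb1 share both the upstream letters and the Y box letters, and a link of these letters to levels was not tested. The mid-villus to tip ratios of H2-Eb1 and H2-DMb1 had intervals that did not overlap in the Cre library and overlapped in the control. With a mitochondrial limit of 10% their order in the Cre library turned round, at 3.40 for H2-Eb1 and 1.85 for H2-DMb1.

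Ciita, the transactivator, was scarce and had a course of its own. It was at 4.85 and 5.70 in stem-like, 5.92 and 3.51 in TA-like, 16.1 (12.9 to 19.8) and 9.81 (8.07 to 11.8) in villus bottom-like and 19.8 (16.7 to 23.4) and 13.9 (12 to 16.1) in mid-villus-like cells. In villus tip-like cells 0 and 6 UMIs were seen over 572 and 1707 cells. With the control tip library set to a floor of 3 UMIs, 1.26 CPM, the villus bottom level was 12.7 times that floor. The exact interval of the tip to bottom ratio ran from 0 to 0.0986. In the Cre library mid-villus-like cells were at 15.5 (6.97 to 42.6) times the tip-like level. That ratio was 1.05 with a mitochondrial limit of 10%, 5.95 with more than 1000 genes required and 5.54 at the coarser clustering resolution of 0.4. Mid-villus-like over bottom-like level was 1.23 (0.936 to 1.63) and 1.42 (1.12 to 1.81) for Ciita. These intervals lay below those of H2-Aa, H2-Ab1 and H2-Eb1 in both libraries, so the transactivator differed less between bottom and middle than the chains it controls.

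Ordering the 9 absorptive clusters by their own ratio of tip to bottom markers gave a finer course. In the control the summed class II level was 428 in the first cluster, 844 and 1179.7 in the next pair, 620.3 in the unnamed cluster 12, and then 994, 972, 870, 677 and 516. The Cre library gave 368, 721, 985, 727, 1078, 969, 856, 713 and 548. The highest cluster was the third in the control and the fifth in the Cre library, and the last 3 clusters declined in both. Over those last 3, all tip-like, H2-Eb1 went from 49.3 through 19.2 to 3.65 in the control and from 61.2 through 22.3 to 21.8 in the Cre library. These values rested on 38, 15 and 3 UMIs in the control and 138, 48 and 49 in the Cre library. Ciita was at 0 in each of the last 3 clusters in the control, and at 1.78, 0.929 and 0 in the Cre library. The plot along the villus shows these courses beside the flatter one of Cd74.

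**Figure D2:**
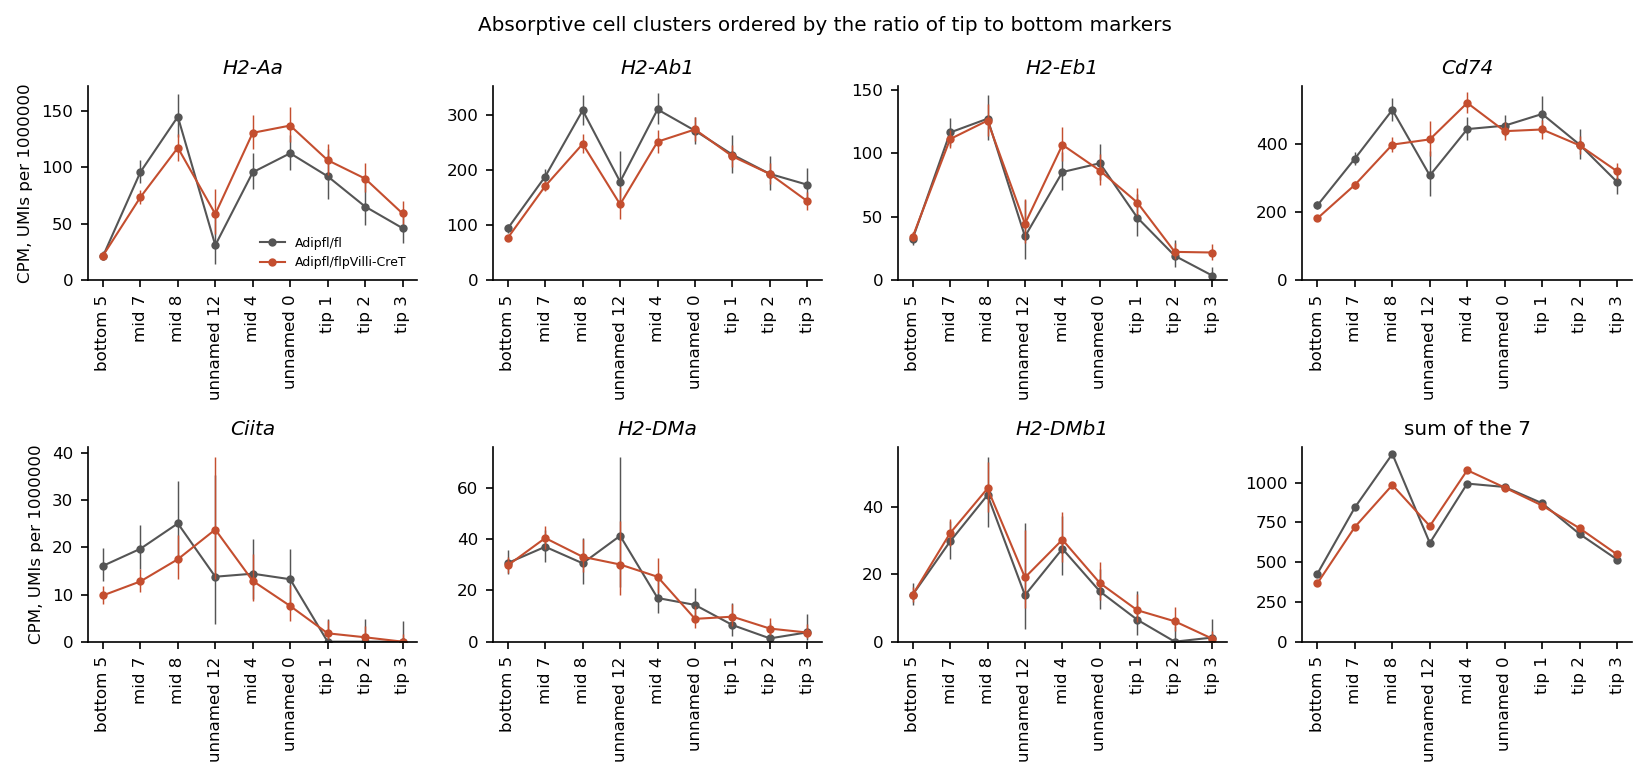
CPM of each gene and of the sum (linear axes from 0) in the 9 absorptive clusters, placed in order of their ratio of villus tip to villus bottom marker transcripts, 1 line per library. Ciita and the H2-DM pair are lowest over the last 2 clusters, while Cd74 there stays above its level in the first cluster.

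Members were also compared with each other within a class. H2-Aa per H2-Ab1, alpha over beta chain of the same molecule, was 0.441 (0.404 to 0.481) and 0.461 (0.431 to 0.493) in mid-villus-like and 0.225 (0.183 to 0.276) and 0.282 (0.244 to 0.326) in villus bottom-like cells. In myeloid-like cells it was 1.09 (1.01 to 1.18) and 1.45 (1.30 to 1.62) and in the unnamed immunoglobulin-led cluster 1.33 (1.07 to 1.65) and 1.38 (1.07 to 1.80). Epithelial cells of every villus zone thus held less than 1 alpha chain transcript per beta chain transcript and the myeloid-like and immunoglobulin-led clusters more than 1, with no overlap of these intervals. T cell-like cells were at 0.368 (0.212 to 0.617) and 0.443 (0.289 to 0.668), within the range of the villus. Stem-like cells were at 0.562 and 0.443.

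The H2-Eb1 per H2-Ab1 ratio separated the zones further, at 0.705 and 0.830 in stem-like, 0.460 and 0.561 in mid-villus-like, 0.119 and 0.188 in tip-like and 0.902 and 1.31 in myeloid-like cells. Cd74 per H2-Ab1 was 3.85 and 3.19 in stem-like and 3.84 and 3.45 in TA-like cells, 2.33 and 2.35 in villus bottom-like, 1.68 and 1.71 in mid-villus-like and 2.32 and 2.5 in myeloid-like cells. The crypt-like classes therefore held the most invariant chain transcript per beta chain among the epithelial zones. The plot of ratios shows that no single mixture of class II transcripts was shared by all classes.

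**Figure D3:**
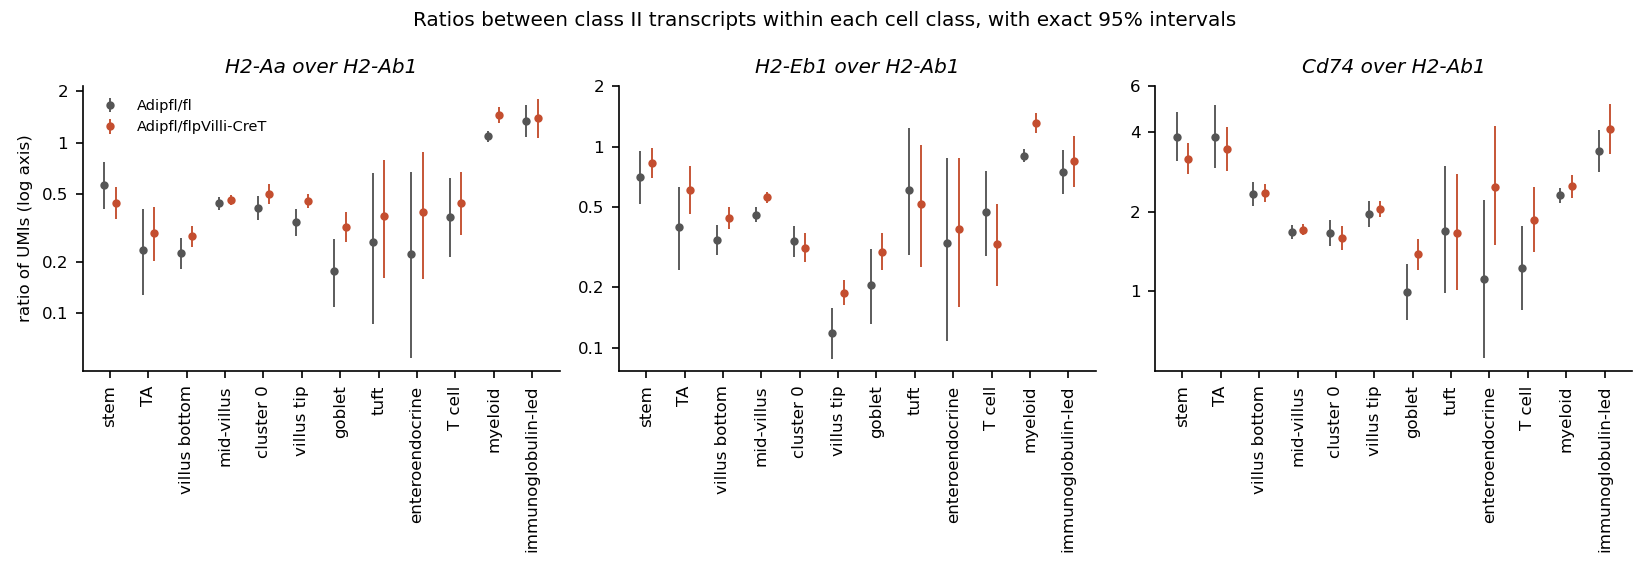
Ratios of UMIs between class II genes within each cell class (log axis), 1 point per library with exact 95% intervals. H2-Aa per H2-Ab1 lies below 1 in the villus zones and above 1 in myeloid-like and immunoglobulin-led cells, and H2-Eb1 per H2-Ab1 is lowest at the villus tip, at 0.119 and 0.188.

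Shares of cells with a transcript were compared after each cell was thinned to 2000 UMIs, with shallower cells left out. Cd74 was then seen in 44.0 and 40.9% of mid-villus-like, 45.3 and 44.3% of tip-like and 28.3 and 26.0% of bottom-like cells. T cell-like cells, since mouse T cells make little or no class II, served as the background and gave 4.23 and 3.75%. Unthinned, these shares were 71.3 and 73.7%, 62.8 and 61.7%, 80.7 and 76.6% and 10.4 and 13.2%, at median depths of 8380.5 and 9092, 3808.5 and 3496, 21314.5 and 20294 and 5214 and 4554 UMIs. The order of the bottom and the tip thus turned round once depth was equal. Goblet-like cells gave 6.05 and 16.5%, which overlapped the T cell-like share in its interval in the control and lay above it in the Cre library. Enterocyte transcripts stood at 24.7 and 36.8% of their villus level in goblet-like cells and at 5.79 and 14.5% in T cell-like cells. The T cell-like share therefore cannot show whether goblet-like cells stood above a background of their own.

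In the middle and at the tip of the villus, cells that held Cd74 held H2-Aa more often. Among thinned mid-villus-like cells, H2-Aa was seen in 24.6 and 28.9% of those with Cd74 and 7 and 9.12% of those without. At the tip the shares were 16.0 and 19.5% against 5.63 and 8.82%. Class II transcripts were thus unevenly spread among cells of these zones, at equal depth. The link to Cd74 was not clear for every chain and class. At the villus bottom of the control H2-Eb1 was seen in 6.25% of cells with Cd74 and 6.17% of those without. At the control tip its intervals overlapped, at 4.01 to 10.7% with Cd74 and 1.15 to 5.15% without. In control goblet-like cells H2-Aa was seen in 0 of 13 with Cd74 (0 to 24.7%) and 4 of 202 without, too few to compare. In Cre goblet-like cells it was seen in 8 of 64 with Cd74 (12.5%) and 6 of 325 without (1.85%). Stem-like cells were few, and 1 control cell held 30.5% of all class II UMIs of its class.

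Markers of antigen-presenting cells stood at low levels in the villus. The 23 such genes summed to 7.86 and 23.4 CPM in villus bottom-like, 22.4 and 16.8 in mid-villus-like and 13.9 and 13.1 in tip-like cells, against 19867 and 16193 in myeloid-like cells. The defining marker Lyz2 was at 0.862 and 0.516 in mid-villus-like and 3682 and 3617 in myeloid-like cells. In the 90.1 and 91.4% of mid-villus-like cells without a UMI of any marker, the 7 genes summed to 942 and 859.5, close to the value over all of them. Marker-free cells gave a like picture at the tip (695 and 706) and at the bottom (438 and 384). In stem-like cells the marker sum was 13.6 and 39.2, and marker-free cells held 525 and 721, lower than over all stem-like cells in the control and higher in the Cre library.

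H2-DMa behaved unlike the other members in T cell-like cells. Its level there, 36.0 (29.4 to 43.5) and 30.3 (24.6 to 37.0), was 135 and 109.9% of its level in the villus. The 12 enterocyte transcripts fixed as a reference, among them Apoa1, Fabp1 and Sis, stood at 5.79 and 14.5% of their villus level in the same cells, Cd74 at 7.08 and 15.5%, H2-Aa at 10.3 and 16.5%, H2-Ab1 at 10.7 and 16.0% and H2-DMb1 at 8.15 and 8.85%. H2-Eb1 stood at 13.4 and 11.8% and Ciita at 6.66 and 19.3%. The partner of H2-DMa was nearly missing, with 21.2 (8.80 to 66.6) and 16.2 (7.16 to 45.1) UMIs of H2-DMa per UMI of H2-DMb1. H2-DMa per Cd74 was 1.51 (1.11 to 2.08) and 0.660 (0.505 to 0.859) in T cell-like, 0.0763 and 0.104 in mid-villus-like and 0.0377 and 0.0399 in myeloid-like cells, so that neither of these other classes held the T cell-like ratio. All 4 T cell-like clusters contributed, from 21.7 to 49.4 in the control and from 19.9 to 38.2 in the Cre library. After thinning, 9.13 and 5.92% of T cell-like and 4.39 and 5.48% of mid-villus-like cells had a UMI of H2-DMa.

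Myeloid-like cells, the classical presenters, numbered only 61 and 32. Cd74 was at 12091 and 9034, H2-Aa at 5697 and 5248, H2-Ab1 at 5223 and 3617 and H2-Eb1 at 4713 and 4738 CPM. H2-DMa was at 455 and 360.3, H2-DMb1 at 369.7 and 353 and Ciita at 144 and 163. The excess over villus cells was uneven, at 82.4 and 79.4 times for H2-Aa and 68.7 and 69.0 for H2-Eb1 but 17.1 and 13.1 for H2-DMa and 9.43 and 16.8 for Ciita. Requiring more than 1000 genes lowered the summed excess to 13 and 9.09.

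The myeloid-like cells were themselves mixed. Of them 46 and 19 (75.4 and 59.4%) held over 10000 CPM of class II, and 7 and 7 held none. The cells with a UMI of the dendritic cell genes Xcr1, Clec9a, Flt3, Zbtb46 or Ccr7 (12 and 6 cells) summed to 33237.5 and 37703, and those with the macrophage complement genes C1qa, C1qb or C1qc (39 and 13 cells) to 29601 and 29812. Cells without the complement genes were at 27497 and 19359.9. The immunoglobulin-led cluster (30 and 29 cells), left unnamed, held 4309.8 and 3087. It was mixed too, with 7 myeloid and 5 B or plasma cell markers. Its 7 and 16 cells with Jchain, a gene of antibody-secreting cells, held 1016 and 1192 against 7144 and 9175 in the rest. Its 19 and 9 cells with a UMI of the same dendritic cell genes held 5739 and 9690 against 2788 and 1586 in the rest.

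Other genes of the class II cluster were almost silent in the epithelium. H2-Ea, the defective I-E alpha chain, gave 0 and 1 UMIs over all epithelial cells and 0 and 0 in myeloid-like cells, where H2-Eb1 was abundant. H2-DMb2, a second H2-DM beta chain and close copy of H2-DMb1, was at 113 and 109 in myeloid-like cells and gave 1 and 0 UMIs in the epithelium. The H2-DO genes H2-Oa and H2-Ob, whose product restrains H2-DM, were at 73.9 and 68.0 and at 81.7 and 61.2 in myeloid-like cells and gave 0 and 1 and 1 and 0 UMIs in the epithelium. Of the costimulatory genes that act beside class II, epithelial cells held next to none of 3, with 0 and 1 UMIs of Cd80, 3 and 0 of Cd86 and 2 and 1 of Cd40. Icosl, the ligand of ICOS on T cells, gave 88 and 124 UMIs in the epithelium, and in goblet-like cells it was at 12.1 and 1.88 (23 and 7 UMIs), a fold of 0.155 (0.0562 to 0.373). Cd86 was at 175 and 143 and Cd40 at 66.2 and 68.0 in myeloid-like cells. Cd274, an inhibitory ligand, was at 24.4 and 22.6 in tip-like cells.

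Between the genotypes the class II level of the whole epithelium was nearly the same. The summed level was 638 and 604, a fold of 0.947 (0.927 to 0.966) for Cre over control. A fold past 1.5 in either direction was found for 0 of the 7 members, where 1.84% of all 7724 genes tested (at least 10 CPM in either library) had one. The median log2 fold was 0.01 for the members and 0.01 for all genes tested. A mean over cells, in which each cell counts the same, put the summed fold at 1.01. A lower level and fewer expressing cells within a class cannot be told apart from these sums alone, and the cell classes themselves differed in share, tip-like cells making up 18.6 and 30.7% of kept cells.

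By role, Ciita was the member with the lowest ratio. Over all epithelial cells it was at 12.7 and 8.72 CPM (282 and 395 UMIs), a fold of 0.688 (0.589 to 0.804). Villus bottom-like cells, at 16.1 and 9.81, had a fold of 0.610 (0.457 to 0.816). Mid-villus-like cells, at 19.8 and 13.9, had a fold of 0.703 (0.562 to 0.882). The unnamed cluster 0 was at 13.2 and 7.57, with a fold of 0.572 (0.288 to 1.11). The interval lay below 1 in 2 of the 8 named epithelial classes and above 1 in 0 of them. Over the processing alternatives the fold over all epithelial cells ran from 0.600 to 0.784, and after thinning the fold of villus bottom-like cells was 1.03 with an interval from 0.358 to 3.34.

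In villus bottom-like cells 1 of 7 members, Ciita, was past 1.5-fold lower, beside 1.03% of all genes tested there. At 16.1 and 9.81 CPM it passed the 10 CPM limit only through the control library, where it was the higher. Cd74 was at 219 and 181 with a fold of 0.826 (0.769 to 0.888), and H2-Ab1 at 94.2 and 77.0 with 0.818 (0.732 to 0.914). The other 4 members had intervals that held 1, among them H2-Aa at 1.03 (0.819 to 1.29) and H2-DMa at 0.970 (0.804 to 1.17). The summed fold was 0.859 (0.816 to 0.904).

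In mid-villus-like cells the members did not move together. The I-A chains and the invariant chain were lower in the Cre library, with folds of 0.872 (0.796 to 0.956) for H2-Aa, 0.834 (0.784 to 0.886) for H2-Ab1 and 0.850 (0.812 to 0.891) for Cd74. H2-Eb1 was at 1.02 (0.932 to 1.11), H2-DMa at 1.16 (0.988 to 1.37) and H2-DMb1 at 1.08 (0.919 to 1.27). No member was past 1.5-fold, against 2.39% of all genes, and the median log2 fold was -0.20 for the members and 0.01 for all genes. The summed fold was 0.883 (0.857 to 0.910), and 0.982 as a mean over cells. H2-Aa turned to 1.08 as a mean over cells and 1.29 after thinning.

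The mid-villus result was not uniform over its 3 clusters. The earlier pair along the villus had summed folds of 0.855 (0.818 to 0.892) and 0.835 (0.789 to 0.884), and the latest one 1.08 (1.02 to 1.16). In that latest cluster Cd74 was at 443 and 519 and H2-Aa at 95.7 and 131, folds of 1.17 (1.07 to 1.29) and 1.37 (1.12 to 1.68), whereas H2-Ab1 was at 311 and 252 with 0.811 (0.717 to 0.918). Alpha and beta chain of I-A therefore moved apart there. The shares of these clusters within the class differed between the libraries, at 202, 169 and 283 cells in the control and 425, 334 and 403 in the Cre library.

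At the villus tip the direction was the other one for 2 chains. H2-Aa was at 67.4 and 85.2, a fold of 1.26 (1.06 to 1.52), and H2-Eb1 at 23.6 and 35.3, a fold of 1.5 (1.11 to 2.04). Cd74 was at 0.992 (0.919 to 1.07) and H2-Ab1 at 0.947 (0.851 to 1.05), and the sum at 1.03 (0.975 to 1.09). Of the 4 members with at least 10 CPM, 0 were past 1.5-fold, beside 8.68% of all genes. The tip values depended on which cells were kept. The summed fold was 1.84 with a mitochondrial limit of 10% and 0.959 at the coarser resolution, and the H2-Eb1 fold ran from 0.915 to 3.65.

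**Figure D4:**
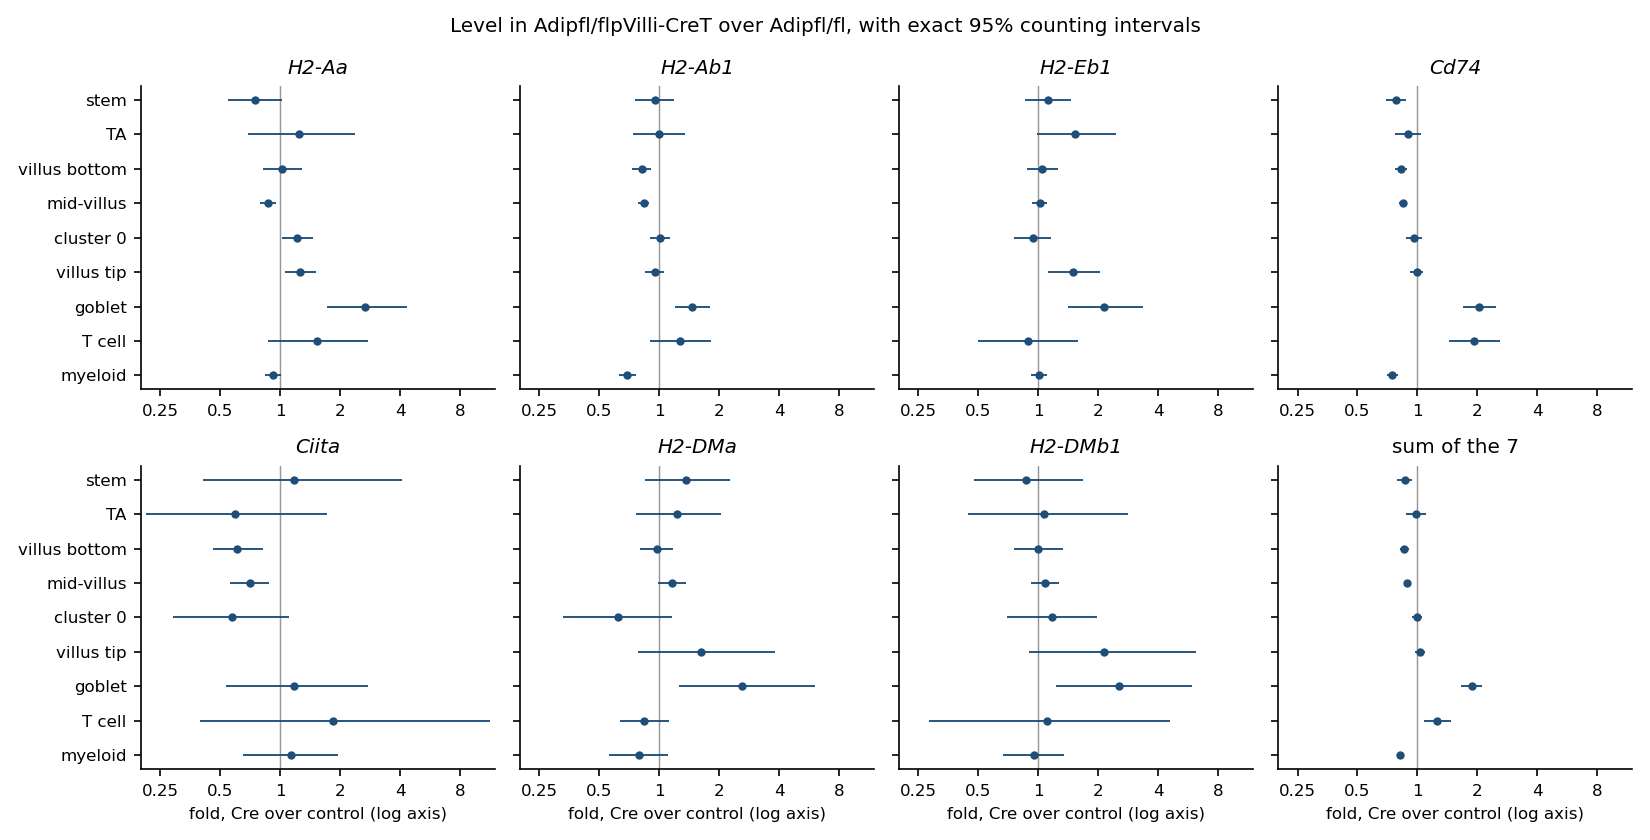
Fold of the Cre over the control library (log axis) for each gene and for the sum, by cell class, with exact 95% counting intervals and a line at 1. Ciita lies below 1 in villus bottom-like and mid-villus-like cells, and goblet-like cells lie above 1 for the sum, at 1.87.

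In the crypt, stem-like cells held Cd74 at 418 and 328, a fold of 0.785 (0.699 to 0.882), and the summed fold was 0.865 (0.793 to 0.945). The control sum of these stem-like cells rested in part on 1 of 40 cells, which held 222 of the 729 class II UMIs (30.5%). The counting intervals do not cover this. Of 6 members tested there 0 were past 1.5-fold, beside 12.8% of all genes. Without cells holding a UMI of an antigen-presenting cell marker the stem-like sums were 525 and 721, the Cre library being the higher. TA-like cells had a summed fold of 0.986 (0.876 to 1.11), and 1 of 5 members was past 1.5-fold beside 10.2% of all genes. It was H2-Eb1, at 20.0 and 30.5 with a fold of 1.53 (0.982 to 2.45).

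In goblet-like cells the 6 members tested were all higher in the Cre library. H2-Aa was at 12.7 and 33.9, a fold of 2.68 (1.72 to 4.33). H2-Ab1 was at 71.8 and 105 with 1.47 (1.21 to 1.80), and Cd74 at 71.3 and 146 with 2.04 (1.69 to 2.48). Of 6 members tested, 5 were past 1.5-fold higher, beside 11.5% of all genes. The median log2 fold was 1.23 for the 6 members and 0.11 for all genes tested. H2-DMa, at 4.75 and 12.4 CPM, and H2-DMb1, at 4.75 and 12.1, passed the 10 CPM limit only through the Cre library. A rise was thus built into their entry, and both the count and the median of the members include them. Transcripts of absorptive cells were higher in the same cells. The 12 enterocyte genes summed to 15152 and 20843 CPM, 12 of 12 were higher in the Cre library and 4 were past 1.5-fold. As a percent of the villus level, these genes stood at 24.7 and 36.8% in goblet-like cells and Cd74 at 21.2 and 49.2%. The richest 10% of goblet-like cells held 68.4 and 67.2% of the class II UMIs and 55.6 and 44.3% of the cells held none. The part of enterocyte transcripts in the goblet-like fold was not tested.

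Enteroendocrine-like cells had a summed fold of 1.93 (1.37 to 2.75) on 51 and 109 UMIs, beside enterocyte genes at 18.9 and 33.8% of their villus level, and tuft-like cells one of 1.15 (0.867 to 1.54). T cell-like cells had a fold of 1.26 (1.08 to 1.47) for the sum and 1.93 (1.45 to 2.61) for Cd74, with 2 of 4 members past 1.5-fold higher beside 7.98% of all genes. H2-Aa, the other member past it, had a fold of 1.54 (0.869 to 2.78), an interval that holds 1. At 7.12 and 10.9 CPM it passed the 10 CPM limit only through the Cre library. In those T cell-like cells the enterocyte genes summed to 3548 and 8207, with 11 of 12 past 1.5-fold higher. H2-DMa, whose T cell-like level stood above its villus level, had a fold of 0.843 (0.633 to 1.12). H2-Eb1, on 27 and 26 UMIs, had one of 0.887 (0.497 to 1.58), and H2-Ab1 one of 1.28 (0.897 to 1.83). The part of enterocyte RNA in these folds was not tested.

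Myeloid-like cells of the Cre library held less class II transcript, with a fold of 0.819 (0.787 to 0.853) for the sum, 0.747 (0.700 to 0.797) for Cd74 and 0.692 (0.625 to 0.766) for H2-Ab1. H2-Aa was at 0.921 (0.843 to 1.01) and H2-Eb1 at 1.01 (0.915 to 1.10). Of 7 members, 0 were past 1.5-fold, beside 52.2% of all genes, from 61 and 32 cells. The median log2 fold was -0.12 for the members and 0.22 for all genes tested. Cells with the complement genes summed to 29601 and 29812, with overlapping intervals, and made up 39 of 61 and 13 of 32 of the class. The antigen-presenting cell markers summed to 19867 and 16193 and moved with the class II sum, and their part in it was not tested. The 12 enterocyte genes summed to 7643 and 11081 CPM in the same cells, with a median log2 fold of 0.71. The part of enterocyte RNA in the myeloid-like fold was not tested.

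Related gene lists were read beside these folds. Interferon gamma itself, the cytokine that induces Ciita, was transcribed by T cell-like cells, where Ifng was at 20.0 and 25 CPM, and gave 1 and 1 UMI in the epithelium. Of 17 interferon gamma targets, 7 reached 10 CPM over all epithelial cells. All 7 were lower in the Cre library, 2 past 1.5-fold, beside 1.18% of all genes. Their median log2 fold was -0.56. Gbp7, a guanylate-binding protein of cell-autonomous defence, was at 24.6 and 13.7, a fold of 0.556 (0.495 to 0.625), and Irgm2, an immunity-related GTPase, at 24.4 and 15.8 with 0.646 (0.577 to 0.724). Irf8, the most abundant of the tested targets, was at 184 and 157 with 0.855 (0.823 to 0.889). In mid-villus-like cells 6 of 6 were lower, at the villus bottom 5 of 6 and at the tip 4 of 7. In goblet-like cells 8 of 10 were lower, while the class II sum had a fold of 1.87 there. The median log2 fold of all genes tested was 0.01, 0.003, 0.04 and 0.11 in these classes, in the order given. Gbp7 at the bottom (13.9 and 7.07 CPM) and Gbp3 in goblet-like cells (14.8 and 9.15) passed the 10 CPM limit only through the control library. A fall was thus built into their entry. The exception at the bottom was Zbp1, a nucleic acid sensor, with a fold of 1.03 (0.874 to 1.21), and Ido1, a tryptophan-degrading enzyme below 10 CPM there, gave 2 and 80 UMIs. Ido1 was among the 7 lower over all epithelial cells, on 2586 and 3582 UMIs, of which goblet-like cells held 2551 and 3367. Ciita had a fold below 1 in mid-villus-like and bottom-like cells, while the intervals of H2-Eb1, H2-DMa and H2-DMb1 held 1 in both zones.

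Of 8 interferon gamma signalling genes, 6 were tested and 4 were lower, with 0 past 1.5-fold. Irf1, the factor that acts on the Ciita promoter, was at 139 and 107, a fold of 0.769 (0.735 to 0.805). The fold was 1.02 (0.984 to 1.07) for the receptor chain Ifngr1, and the most abundant gene, the receptor chain Ifngr2, was at 190.3 and 162 with 0.850 (0.819 to 0.883). The factors that hold CIITA on class II promoters did not share this direction. Of 6 tested, 5 were higher and 0 past 1.5-fold, with folds of 1.2 (1.03 to 1.40) for the NF-Y subunit Nfya, 0.913 (0.812 to 1.03) for the RFX subunit Rfxank and 1.03 (0.947 to 1.13) for Creb1, the most abundant at 33.9 and 35.0. Rfx5 was at 4.63 and 3.64 CPM and was not tested.

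Endosomal processing genes, which make the peptides for class II, differed little between libraries. Of 8 tested, 0 were past 1.5-fold. Ctss, the protease that trims the invariant chain, was at 105 and 106 and Ifi30, a reductase of the endosome, had a fold of 0.924 (0.890 to 0.960). The cathepsin genes Ctsb and Ctsl marked the ends of the list, with folds of 1.08 (1.05 to 1.12) and 0.886 (0.785 to 1.00), and Ctsb was the most abundant at 234 and 253. Class I genes, which present cytosolic peptides, also stayed within 1.5-fold in all 9 tested. H2-K1 was at 1979.8 and 2303 with a fold of 1.16 (1.15 to 1.18), the highest level and fold of those tested. Tap1, a peptide transporter subunit, had the lowest fold of those tested, 0.900 (0.854 to 0.949). H2-K1 belongs to a family of near-identical genes among which the counting could split reads. Of 10 microbe-responsive epithelial genes 6 were tested, all were higher and 3 were past 1.5-fold, beside 0.66% of all genes. Nos2, the inducible nitric oxide synthase, was at 8.77 and 23.9 with a fold of 2.73 (2.34 to 3.19). It passed the 10 CPM limit only through the Cre library, so a rise was built into its entry, and both counts include it. The antimicrobial lectin Reg3b, the most abundant, was at 10924 and 12021 with 1.10 (1.10 to 1.11). Within classes the direction was mixed. In stem-like cells 6 of 6 and in TA-like cells 5 of 5 were lower, with Reg3b folds of 0.506 (0.471 to 0.544) and 0.748 (0.726 to 0.770). The median log2 fold of all genes tested was -0.01 in stem-like and -0.02 in TA-like cells. At the tip Reg3b was at 0.655 (0.639 to 0.673) and Nos2 at 3.93 (2.12 to 8.07). There Nos2, at 4.63 and 18.2 CPM, again passed the limit only through the Cre library. The plot of gene lists sets these folds beside those of the members.

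**Figure D5:**
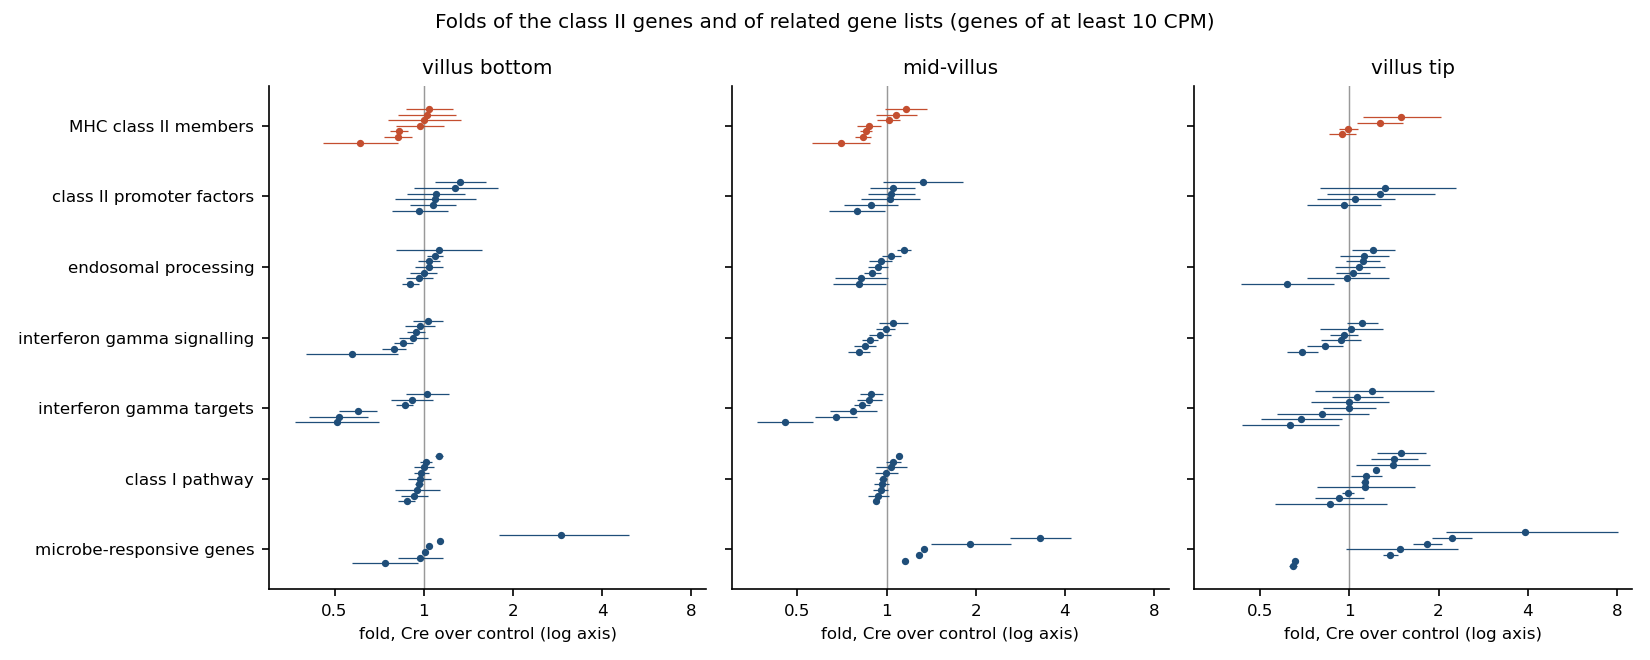
Fold of the Cre over the control library (log axis) for the class II genes and for the genes of each related list with at least 10 CPM, 1 point per gene, in separate panels by cell class. The panels are villus bottom-like, mid-villus-like and villus tip-like cells. In mid-villus-like cells the 6 interferon gamma targets lie below 1, while the class II genes lie on both sides of it, and at the tip 4 of 7 targets lie below 1.

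The gene profiles most like the summed class II level were sought over 16 profiles (8 named epithelial classes in 2 libraries) among 6165 genes, as a description without a test. Among the 10 genes with the highest Pearson r were the water channel gene Aqp1 (0.83), Nrip1 (0.83), Gatad2a (0.79), 9430038I01Rik (0.77), Plbd1 (0.76), Sh3d19 (0.74), Gata6 (0.74), Rac1 (0.73) and the prolactin receptor gene Prlr (0.73). Aqp1 shared the dip between crypt and villus, with 85.3 CPM in control stem-like, 10.1 in villus bottom-like and 91.6 in mid-villus-like cells. Of the members, Cd74 (0.98), H2-Aa (0.94), H2-Ab1 (0.91) and H2-Eb1 (0.83) followed the sum that they are part of, H2-DMa (0.62) and H2-DMb1 (0.59) less so, and Ciita was at 0.13. The profiles of 1 library share its depth and its free RNA, so they are not independent points.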

How the data were processed

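Small intestinal epithelium was dissociated, dead cells were removed, and 1 Chromium Single-Cell 3′ library per genotype was sequenced. The authors demultiplexed the reads with bcl2fastq 5.0.1 and counted them against mm10 with Cell Ranger (7.0.0 in the study's methods, 7.1.0 in the file headers), and the deposited values are raw UMI counts per gene and barcode. The gene annotation is not given in the sources used here. Columns of other samples numbered 0.

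Barcodes over 500 genes and below 25% of UMIs from mitochondrial genes were kept (3069 and 5555, fewer than the study states after its own filter), with 25687687 and 48895126 UMIs in the control and Cre library. The total per class sets the precision of each level. Counts were log-normalized to 10000 per cell and clustered in Seurat 5.3.0 (R 4.3.3) on 2000 variable genes and 20 principal components at resolution 0.8, with the crypt sub-clustered at 0.4. A cluster took the class with the largest share of its markers at 2-fold or more on at least 10 UMIs, with at least 3 such markers. Cell cycle markers were set aside in T cell-like and stem-like clusters. A cluster whose largest share was endothelial or fibroblast, or cell cycle beside secretory markers, stayed unnamed. Scrublet marked 3 and 2 cells, under 0.5%, and was not used, and removal of the 8% highest scores was an alternative.

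Levels were summed UMIs per 1000000 (CPM) with exact Poisson intervals, and folds and ratios had exact conditional intervals (scipy 1.17.1), at 95% and for counting error only. A zero was set to a floor of 3 UMIs per library. Genes of at least 10 CPM in either library entered the counts past 1.5-fold. No test was run between genotypes, and the scripts were tested on simulated data. All 7 genes are named. Of the 10 related lists, the genes named were those with the largest fold in each direction and the highest level, and other list genes were named for their role after their values were seen. The 10 genes most like the sum came from those of at least 50 CPM in some class, and not every one is reported here. Members and lists were chosen with earlier results of these data known. Alternatives covered the barcode filters, the mitochondrial share, clustering, doublets, the denominator, thinning, a mean over cells, and leaving out the richest cell or marker-bearing cells.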

Additional observations from a re-analysis of the deposited data

Results flagged for a closer look

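Class II transcripts were also present in the barcodes that the filters removed and that no comparison used. Per 1000000 non-mitochondrial UMIs, barcodes removed by the mitochondrial limit held 1079 and 1056 in the control and Cre library, and barcodes with 500 genes or fewer held 1364 and 1007. Kept cells held 988 and 725 on the same scale. Myeloid-like and immunoglobulin-led cells held 7373 and 1082 of the 22935 class II UMIs of kept control cells. In the Cre library they held 3459 and 805 of 32022. Antigen-presenting cell markers were at 62.1 and 41.4 in the barcodes of high mitochondrial share and at 1239 and 605 in kept cells. These sums do not single out antigen-presenting cells, since the same markers summed to 7265 and 6814 CPM in T cell-like cells. T cell-like cells made up 15.3 and 10.0% of kept cells.

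Cre over control folds pointed in opposite directions in different classes, with intervals on opposite sides of 1. These differences were not tested, since each genotype had 1 library. H2-Aa, the alpha chain, had a fold of 0.872 in mid-villus-like enterocytes and 1.26 at the villus tip. The summed fold of the 7 genes was 0.865 in stem-like cells, 0.859 at the villus bottom, 0.883 in mid-villus-like enterocytes, 0.819 in myeloid-like cells and 0.716 in the immunoglobulin-led cluster. It was 1.87 in goblet-like, 1.93 in enteroendocrine-like and 1.26 in T cell-like cells. The fold of the immunoglobulin-led cluster did not hold within its parts when these were split by Jchain. Its cells with Jchain held 1016 (841 to 1217) and 1192 (1045 to 1354) CPM, with overlapping intervals. The rest held 7144 (6700 to 7610) and 9175 (8436 to 9962), the Cre library being the higher. The cells with Jchain numbered 7 of 30 and 16 of 29. Split by the dendritic cell genes instead, cells with a UMI held 5739 and 9690, and cells without one 2788 and 1586, the Cre library being the lower. In the stem-like class, 1 control cell held 222 of the 729 class II UMIs, and in the myeloid-like class 1 Cre cell held 622 of 3459.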

How the results depend on the processing

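Of the values that answer a comparison, recomputed under 1 changed choice at a time, 79 moved by less than their counting interval, 40 moved by more and 2 turned direction, and for the other values the numbers were 530, 93 and 13. The cause of these movements was not tested. The summed fold of all epithelial cells, 0.947, was 0.921 with doublet scores removed, 0.978 without marker-bearing cells, 1.01 as a mean over cells and 1.00 after thinning, the last pair being the turned ones. The mid-villus-like fold, 0.883, was 0.852 with the 10% mitochondrial limit, 0.845 with the share over coding genes, 0.857 with doublet scores removed, 0.912 without marker-bearing cells, 0.982 as a mean over cells and 0.961 after thinning. The villus tip-like fold, 1.03, was 1.84 with the 10% limit, 1.13 with the coding-gene share, 0.966 with more than 1000 genes and 0.959 at resolution 0.4. The number of members past 1.5-fold in the epithelium was 1 rather than 0 with the coding-gene share and as a mean over cells.

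Villus over crypt, 1.5 and 1.41, was 1.30 and 1.16 with the 10% limit, 1.37 and 1.35 with the coding-gene share, 1.61 and 1.51 without mitochondrial UMIs in the denominator and 1.87 and 1.30 without marker-bearing cells, and in the control 1.68 as a mean over cells and 1.73 without the richest cell. Myeloid over villus, 40.0 and 36.5, was 41.6 and 40.2 with the coding-gene share, 13 and 9.09 with more than 1000 genes, 46.4 and 55.2 with doublet scores removed, 37.3 and 33.9 without mitochondrial UMIs, 35.7 and 27.6 as a mean over cells, 36.9 and 29.9 after thinning and 38.7 and 33.1 without the richest cell. It was 38.6 at resolution 0.4 in the control and 35.1 without marker-bearing cells in the Cre library.

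Single-gene values with an interval to 1 side of 1 turned as follows. Others, with an interval that held 1, also crossed it, such as the tip-like folds of H2-Ab1 (to 1.95) and Cd74 (to 1.68) with the 10% limit, and those of H2-DMa at the tip (0.858) and Ciita in myeloid-like cells (0.764) with more than 1000 genes. The H2-Aa mid-villus-like fold was 1.08 as a mean over cells and 1.29 thinned, the Cd74 epithelial fold 1.02 as a mean over cells, the H2-Eb1 tip-like fold 0.979 with more than 1000 genes and 0.915 at resolution 0.4, and the Ciita bottom-like fold 1.03 thinned. Mid-villus over tip in the Cre library was 0.907 with more than 1000 genes, 0.954 at resolution 0.4 and, without mitochondrial UMIs, 0.981 for H2-Ab1, and for Cd74 1.17 with the 10% limit, 1.02 at resolution 1.2, 1.02 as a mean over cells and 1.06 thinned.

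No paired analysis was possible because each genotype had 1 library, and for the same reason no replicate was left out. Counting error was the only error measured, and the spread between mice is not known from these libraries. Ciita and the H2-DM genes at the villus tip, and H2-Eb1 in the last control tip-like clusters, rest on few UMIs, as given above.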
